A study of Mus musculus with 20 samples.

Results

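The genes described here are 10 stress sensor and effector genes of the unfolded protein response, all 10 of them found among the 16047 genes counted. They were chosen by name and grouped by signalling arm. Ern1, which encodes the sensor IRE1 alpha, stands for the IRE1 arm. Atf6 and Atf6b stand for the ATF6 arm. Eif2ak3, which encodes the sensor PERK, and its downstream genes Atf4, Ddit3, Ppp1r15a, Trib3, Asns and Atf3 stand for the PERK arm.

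The unfolded protein response adjusts the endoplasmic reticulum (ER) to the load of proteins that have to be folded. Activated IRE1 alpha cuts Xbp1 mRNA so that it can be rejoined and translated into a transcription factor that plasma cells need for their secretory machinery. ATF6 travels to the Golgi, where it is cleaved to release a transcription factor for ER chaperones. PERK phosphorylates the initiation factor eIF2 alpha, which lowers translation in general and favours translation of ATF4 and then of CHOP (encoded by Ddit3). Mouse B cells are known to become plasma cells without PERK. IRE1, ATF6 and PERK are switched on as proteins, so transcript counts of the sensors show how much mRNA was present and not whether the sensor was active.

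The cells came from lymph nodes of C57BL/6 mice that had received NP-KLH, a hapten on a carrier protein, in Sigma Adjuvant System. They were taken at day 15 of the primary response, 4 days after tamoxifen gavage, and the labels call them eYFP+ B cells and PC. The allele behind the eYFP signal and the number of mice are not given in the sources used here, and these groups all share the immunisation, the gavage and the eYFP sort. Single cells were index sorted into plates by surface staining, in 393 cells from a plasma cell gate, 282 from a pre-plasma cell gate, 325 from a dark zone gate and 367 from a light zone gate. The dark zone is where germinal centre B cells divide and mutate, and the light zone is where they are selected. The 20 plates carried the sampleID C57BL/6M on 10 plates with 741 cells, and C57BL/6F on 10 plates with 626 cells. The deposited cell table also gives each cell 1 of 7 annotated states, which hold 480 plasma cells, 29 activated pre-plasma cells (code prePC.Act), 63 memory-like pre-plasma cells (prePC.Mem), 48 light-to-dark zone cells (LZtoDZ), 452 dark zone cells, 278 light zone cells and 17 pre-memory cells (preMem).

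Counts were summed per plate and gate, and a level is given as CPM, the count scaled to an equal pool total, after TMM scaling. Cells held between 261 and 736478 counts with a median of 60536. Of the 20 plates, 19 held between 3208858 and 11908095 counts, and 1 held 5979 counts in 10 cells. This shallow plate entered no comparison between gates that had plate as a block. Its pre-plasma pool of 5 cells did enter the comparisons of the pre-plasma gate when the block was left out. The median count per cell was 59514 in the plasma cell gate, 86862.5 in the pre-plasma gate, 51995 in the dark zone gate and 54019 in the light zone gate. The summed level of 6 germinal centre B cell markers had a median of 74.2 CPM in the plasma cell gate, 726 CPM in the pre-plasma gate, 3113 CPM in the dark zone gate and 2585 CPM in the light zone gate. The 7 plasma cell markers summed to medians of 29523, 9680, 5209 and 3452 CPM in the same order of gates. Bcl6, the defining factor of germinal centre B cells, was at 0 in the plasma cell gate. Markers of T cells had their highest median, 368 CPM, in the light zone gate, where Cd3d, Cd3g, Cd4, Cd8a, Trbc1 and Trbc2 were at 0, and myeloid markers had medians of at most 3.04 CPM. Of the 282 pre-plasma gate cells, 128 were annotated plasma, and the main results for that gate are also given without them. These cells were left out of the pre-plasma gate alone, and the annotation may rest on the transcripts compared here, so that step by itself moves the gate away from plasma cells. Values and counts without them are therefore given as a description only. A pool's level does not tell more cells with a transcript from more transcript per cell, so the share of cells with a count is given beside it. The pools of 1 plate share a library, and it is not stated which plates share an animal, so p-values measure the spread between plates.

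Promoter sequences (RefSeq, GRCm38.p6) were available for 9 of the 10 genes, each running from 250 bases before to 50 bases after the gene's start. They were searched on both strands for 5 motifs. CARE (TGATGNAAN), the composite site through which ATF4 acts with C/EBP factors, occurred in 3.95% of 32851 promoters of this length. UPRE (TGACGTGG), a site for XBP1 and ATF6, occurred in 0.676%, ERSE, the ER stress element, in 0.119%, its variant ERSE-II in 0.0365% and CRE (TGACGTCA) in 1.79%. The CRE and the UPRE share their first letters. CARE matches stood in the promoters of Asns, Trib3 and Atf3, and a CRE match in that of Ppp1r15a. None of the 5 motifs occurred in the windows of Ern1, Atf6b, Eif2ak3, Atf4 and Ddit3. The promoters of Ern1 and Asns are shown whole, since Ern1 differed most between gates and Asns was the PERK arm gene that passed the tests below, and the other matches are shown with a few bases on each side. Bases are 5′ to 3′ on the gene's strand, with the motif match in capitals.
Ern1 (chr11:106487747-106488046, minus strand): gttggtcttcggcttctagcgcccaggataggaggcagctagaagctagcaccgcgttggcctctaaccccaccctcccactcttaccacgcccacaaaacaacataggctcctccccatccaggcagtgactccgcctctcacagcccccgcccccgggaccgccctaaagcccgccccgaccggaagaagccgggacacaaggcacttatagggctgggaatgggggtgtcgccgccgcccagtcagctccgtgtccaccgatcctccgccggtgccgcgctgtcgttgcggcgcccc
Asns (chr6:7693160-7693459, minus strand, CARE): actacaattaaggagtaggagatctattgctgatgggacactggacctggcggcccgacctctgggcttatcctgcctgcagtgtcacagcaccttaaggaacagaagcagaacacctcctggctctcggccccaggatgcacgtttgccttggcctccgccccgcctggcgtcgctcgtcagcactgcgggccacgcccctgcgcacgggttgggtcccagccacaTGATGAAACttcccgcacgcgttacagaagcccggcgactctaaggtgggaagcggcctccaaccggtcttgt
Trib3 (chr2:152344024-152344062, minus strand, CARE read on the opposite strand): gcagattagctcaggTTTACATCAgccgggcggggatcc
Atf3 (chr1:191183421-191183459, minus strand, CARE read on the opposite strand): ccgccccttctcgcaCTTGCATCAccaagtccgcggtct
Ppp1r15a (chr7:45526258-45526295, minus strand, CRE): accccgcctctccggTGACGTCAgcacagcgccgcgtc
Counted from the start that RefSeq gives, the match in Asns lay 23 bases before it, that in Atf3 111 bases before and that in Ppp1r15a 12 bases before, and the match in Trib3 lay after the start. GENCODE vM21 has Atf3 at chr1:191170296-191218039 on the minus strand, so the Atf3 window lies inside that gene, at a start other than its outermost one. Its outermost starts of Asns (chr6:7693254) and Trib3 (chr2:152344032) also differ from those of RefSeq. By these starts the Asns match at 7693224-7693232 lies inside the gene and the Trib3 match at 152344039-152344047 lies before it. A match describes the letters of this window and is no evidence that a factor bound there.

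**Figure D1:**
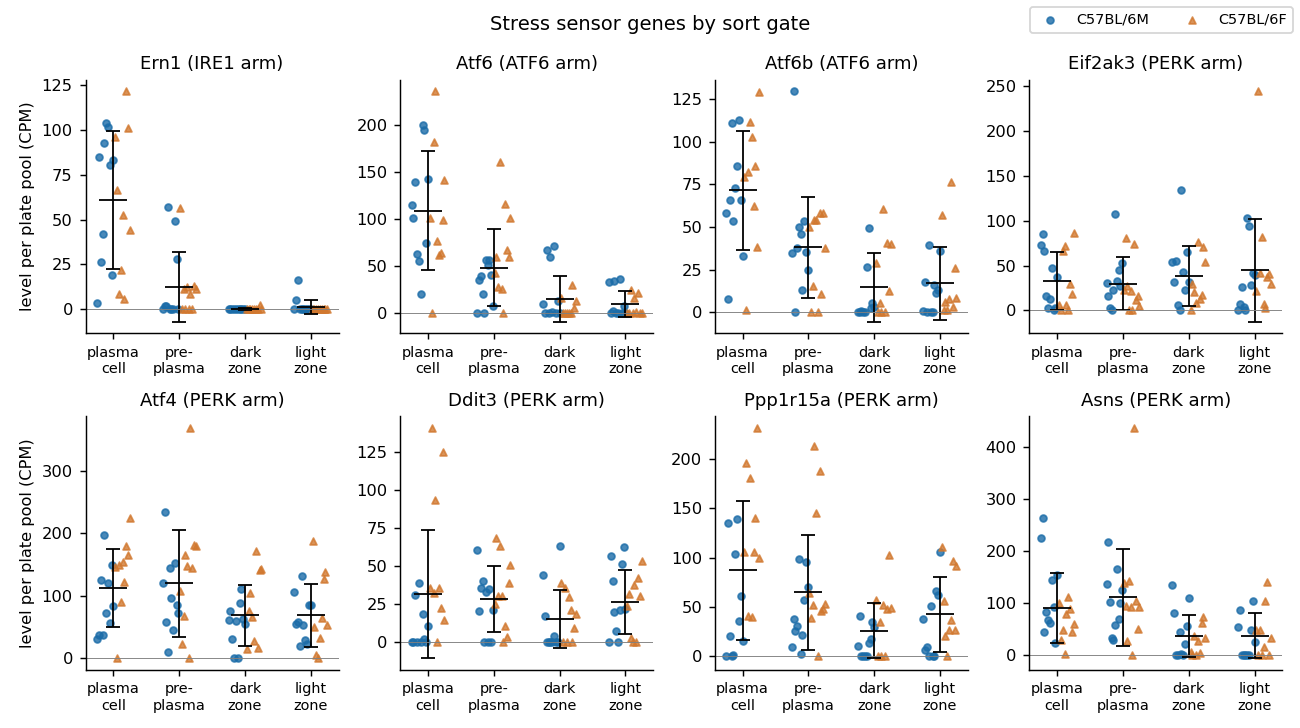
Level of 8 of the 10 genes (CPM, vertical axis, linear) in each plate pool by sort gate (horizontal axis). Circles are C57BL/6M plates and triangles C57BL/6F plates, and the black dash and bar give the mean and SD over 19 pools, or 20 in the pre-plasma gate, where the shallow plate is included. Ern1 pools of the dark zone and light zone gates sit at or near 0, whereas the Eif2ak3 means lie between 30.1 and 44.9 CPM in all 4 gates.

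Ern1 was the member that differed most between the gates. In plasma cell gate pools its lowest level was 3.28 CPM, its median 58.6 CPM and its highest 111 CPM, against a lowest and median level of 0 CPM and a highest of 8.82 CPM in the pools of the germinal centre gates, which join the dark zone and light zone gates. On all 19 plates the plasma cell gate was higher, and 16 of the 19 germinal centre pools held no Ern1 count. Ern1 averaged 55.2 ± 34.9 CPM in the plasma cell gate and 0.655 ± 2.08 CPM in the germinal centre gates (SD, n = 19 plates each). The fitted log2 fold change was 8.41 ± 0.87 (SE, edgeR quasi-likelihood test with plate as a block, adjusted p = 1.75e-08). The log2 ratio of the 2 means was 6.40, so with most germinal centre pools at 0 the size of the fold depends on how it is computed. Ern1 entered the test through its counts in the plasma cell gate. It passed the threshold in 8 of 8 alternative analyses in which it could be tested. These draw on the same counts, so the tally shows dependence on settings and is no separate support.

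In this comparison 4 of the 8 members tested were higher in plasma cell gate pools and no member was lower. Of all 6865 genes tested, 34.9% passed the threshold, with 13.6% higher in the plasma cell gate and 21.3% lower, and the median log2 fold change of all genes was -0.50. The members higher were Ern1, Atf6, Atf6b and, of the 5 PERK arm genes tested, Asns. Trib3 and Atf3 did not pass the filter on low counts.

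The pre-plasma gate stood between the other gates for Ern1. In gate pools on one common scale, Ern1 averaged 60.9 ± 38.6 CPM in the plasma cell gate (SD, n = 19), 12.5 ± 19.4 CPM in the pre-plasma gate (n = 20), 0.115 ± 0.50 CPM in the dark zone gate (n = 19) and 1.13 ± 3.87 CPM in the light zone gate (n = 19). Between the plasma cell gate and the pre-plasma gate the log2 fold change was 3.92 ± 1.22 (edgeR adjusted p = 0.0251), with 15 of 19 plates higher. Here too Ern1 entered the test through its counts in the plasma cell gate, and 8 of 19 pre-plasma pools held none. The median pool had 66.0 CPM in the plasma cell gate and 1.45 CPM in the pre-plasma gate, and the 2 ranges overlapped. In that comparison edgeR put 1 of 8 members tested past the threshold and DESeq2 put 2, Ern1 and Atf6. By edgeR 8.42% of 6564 genes were higher and 9.69% lower. The difference in Ern1 passed the threshold in 7 of 11 alternatives and missed it within C57BL/6M (5.41 ± 1.89, adjusted p = 0.0812) and within C57BL/6F (2.72 ± 1.41, adjusted p = 0.393). It also missed it by edgeR without cells at the count ceiling (3.87 ± 1.38, adjusted p = 0.0530) and without the plate block (2.15 ± 0.76, adjusted p = 0.0509). The fit without the block also took in the pre-plasma pool of the shallow plate. Against the germinal centre gates Ern1 in the pre-plasma gate did not pass the filter, and without a filter its log2 fold change was 4.49 ± 1.41 (edgeR adjusted p = 0.0265).

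The number of cells with an Ern1 count followed the same order. Ern1 was counted in 57 of 393 plasma cell gate cells (14.5%, exact 95% interval 11.2 to 18.4%) and in 22 of 282 pre-plasma gate cells (7.80%, 4.95 to 11.6%). It was counted in 1 of 325 dark zone gate cells (0.308%) and in 2 of 367 light zone gate cells (0.545%). After each cell was thinned to 10000 counts the shares were 11.5% of 375, 5.45% of 257, 0 of 304 (upper bound 1.21%) and 0.597% of 335 cells. Such intervals cover counting error only.

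Within the pre-plasma gate, Ern1 counts lay mostly in cells annotated plasma. Of 128 such cells 18 had a count (14.1%), with 20.6 CPM over their summed counts, against 4 of the 154 other cells (2.60%) with 3.08 CPM. Without the annotated plasma cells the log2 fold change of Ern1 between the plasma cell gate and the pre-plasma gate was 6.95 ± 1.22 over 17 plates.

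Across the annotated states, Ern1 was highest in plasma cells, at 42.9 CPM over summed counts (95% Poisson interval 41.1 to 44.9) with a count in 74 of 480 cells. C57BL/6M plasma cells had 47.5 CPM and C57BL/6F plasma cells 36.9 CPM. The annotation may rest on the same transcripts, so levels by state are a description without a test. Memory-like pre-plasma cells had 26.0 CPM, but from 2 of 63 cells. Light-to-dark zone cells had 2.71 CPM and dark zone cells 1.41 CPM. No Ern1 count was found in the 29 activated pre-plasma cells, the 278 light zone cells or the 17 pre-memory cells. The activated pre-plasma cells were the deepest state, with a median of 229914 counts per cell. The Poisson upper bound for Ern1 in them was 0.485 CPM, and 12.7 CPM after thinning. Both bounds treat the counts of a cell as independent. In plasma cells 1958 Ern1 counts came from only 74 cells, so with 29 cells these bounds are too low. In those same cells Xbp1, the substrate of IRE1 alpha, was at 879 CPM with a count in 27 of 29 cells, against 3360 CPM in plasma cells and 225 CPM in dark zone cells. Gene counts do not separate the spliced from the unspliced form of Xbp1 mRNA.

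**Figure D2:**
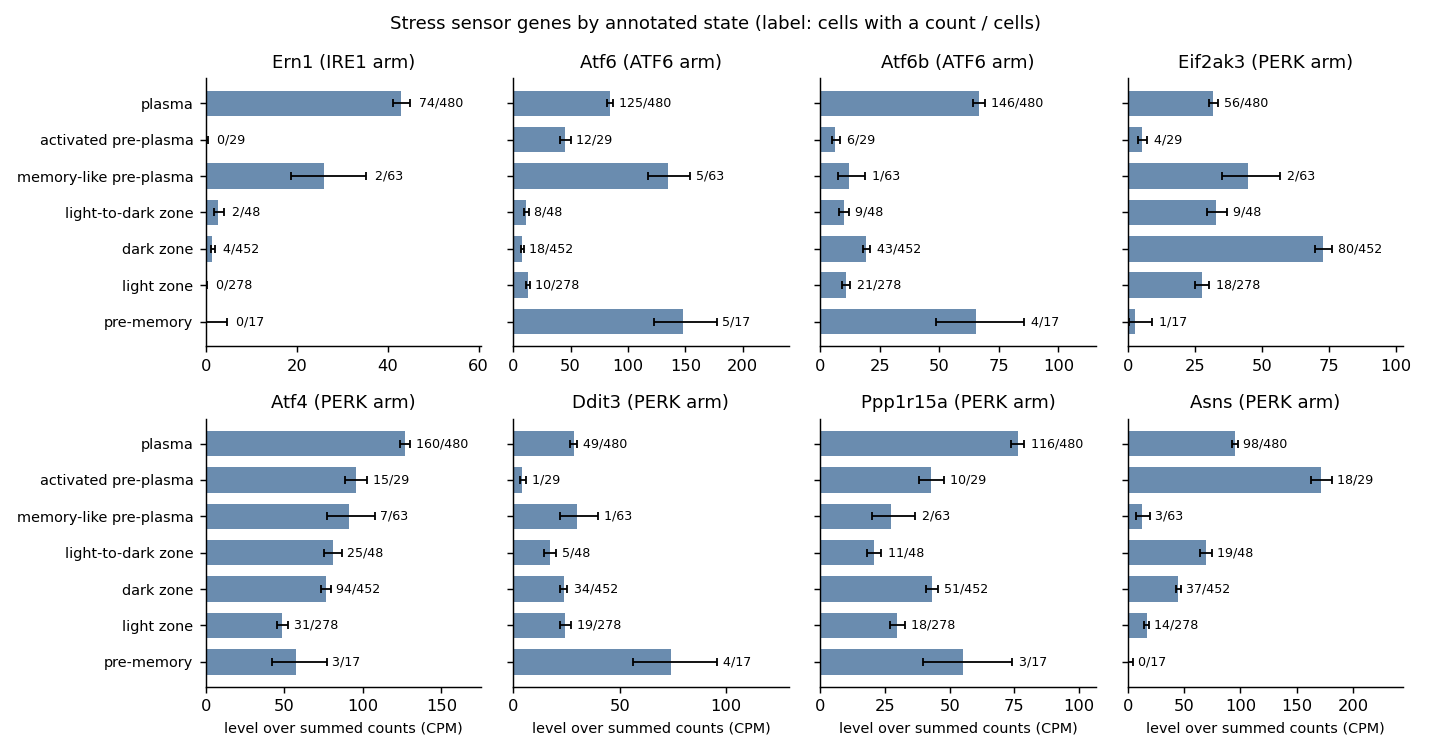
Level of 8 genes (CPM over the summed counts of a state, horizontal axis, linear, from 0) in the 7 annotated states (vertical axis). Bars give the level, whiskers the 95% Poisson interval of the summed count, and the label the cells with a count over all cells of the state. Ern1 was at 42.9 CPM in plasma cells and 0 in activated pre-plasma cells, Asns was highest in activated pre-plasma cells at 171 CPM, and Eif2ak3 was highest in dark zone cells at 72.9 CPM.

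Both genes of the ATF6 arm were higher in the plasma cell gate than in the germinal centre gates. Atf6, the sensor cleaved in the Golgi, had a lowest level of 0 CPM, a median of 90.3 CPM and a highest of 216 CPM in plasma cell gate pools, against 0, 7.68 and 52.5 CPM in germinal centre pools. Of the 19 plates, 18 were higher in the plasma cell gate and 1 was equal, and the ranges overlapped below 52.5 CPM. Atf6 averaged 99.2 ± 57.7 CPM and 12.1 ± 14.7 CPM (SD, n = 19 each), with a log2 fold change of 4.01 ± 0.82 (edgeR adjusted p = 0.000402) and a log2 ratio of means of 3.04. Like Ern1, Atf6 entered the test through its counts in the plasma cell gate, and 5 of 19 germinal centre pools held none. It passed the threshold in 10 of 10 alternatives, which draw on the same counts and are no separate support.

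Atf6b, the close relative of Atf6 that is cleaved in the same way, had a lowest level of 1.25 CPM, a median of 66.2 CPM and a highest of 117 CPM in plasma cell gate pools, against 0, 12.6 and 53.2 CPM in germinal centre pools. It was higher in the plasma cell gate on 18 of 19 plates, with ranges that overlapped. Atf6b too entered the test through the plasma cell gate, and neither ATF6 arm gene passed the filter between the dark zone and light zone gates. Its means were 65.2 ± 32.0 CPM and 16.2 ± 15.3 CPM, and its log2 fold change was 2.51 ± 0.68 (edgeR adjusted p = 0.00520). It passed the threshold in 8 of 10 alternatives, and missed it within C57BL/6M (3.11 ± 1.15, adjusted p = 0.0644) and within C57BL/6F (1.959 ± 0.80, adjusted p = 0.129).

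In the pre-plasma gate neither gene passed the threshold. Atf6 averaged 50.6 ± 39.8 CPM in the pre-plasma gate and 13.1 ± 15.9 CPM in the germinal centre gates (log2 fold change 3.07 ± 1.19, edgeR adjusted p = 0.0872). Atf6b averaged 39.8 ± 28.5 CPM and 17.6 ± 16.4 CPM (1.30 ± 0.73, adjusted p = 0.282). DESeq2 put both past the threshold. Without the cells annotated plasma the values were 0.28 ± 1.62 for Atf6 and -1.55 ± 1.11 for Atf6b, so the sign of Atf6b turned. Between the plasma cell gate and the pre-plasma gate the log2 fold changes were 1.31 ± 0.66 for Atf6 (adjusted p = 0.197) and 1.10 ± 0.55 for Atf6b (adjusted p = 0.187). Without the cells annotated plasma they were 3.83 ± 1.17 and 3.73 ± 1.02. By DESeq2 Atf6 passed the threshold with those cells included (1.21 ± 0.49, adjusted p = 0.0389).

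Both ATF6 arm genes were counted in a larger share of cells in the plasma cell and pre-plasma gates than in the dark zone and light zone gates. Atf6 was counted in 24.9% of plasma cell gate cells, 17.7% of pre-plasma gate cells, 5.54% of dark zone gate cells and 4.63% of light zone gate cells. Atf6b was counted in 24.9%, 23.0%, 8.92% and 10.4% of the same cells. In thinned cells the shares of Atf6b were 16%, 14.4%, 6.91% and 4.78%. By state, Atf6b had 66.5 CPM in plasma cells, 6.31 CPM in activated pre-plasma cells, 19.3 CPM in dark zone cells and 10.7 CPM in light zone cells. Atf6 had 84.6 CPM in plasma cells and 45.3 CPM in activated pre-plasma cells, where 12 of 29 cells had a count, against 7.88 CPM in dark zone cells and 12.6 CPM in light zone cells. In thinned cells it had 31.0 CPM in activated pre-plasma cells (6 of 29 with a count) and 73.8 CPM in plasma cells (88 of 477). Before thinning, activated pre-plasma cells had 28.7 CPM in C57BL/6M and 74.5 CPM in C57BL/6F. The Atf6 levels of 135 CPM in memory-like pre-plasma cells and 148 CPM in pre-memory cells each rested on 5 cells, and 1 memory-like cell held 56.3% of that state's counts.

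The sensor of the PERK arm did not show this pattern. Eif2ak3 had a lowest level of 0 CPM, a median of 16.8 CPM and a highest of 78.3 CPM in plasma cell gate pools, against 0, 36.2 and 146 CPM in germinal centre pools. The plasma cell gate was lower on 11 of 19 plates and higher on 8, and the ranges overlapped throughout. Its log2 fold change was -0.69 ± 0.82, with an interval of -2.31 to 0.92 (edgeR adjusted p = 0.547), and in the pre-plasma gate against the germinal centre gates it was -0.73 ± 0.68, with an interval of -2.05 to 0.60 (adjusted p = 0.555). The second value was -1.52 ± 0.91 without the cells annotated plasma. Both intervals leave room for differences in either direction.

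On the common scale Eif2ak3 averaged 33.0 ± 32.0 CPM in the plasma cell gate, 30.1 ± 29.4 CPM in the pre-plasma gate, 38.6 ± 33.2 CPM in the dark zone gate and 44.9 ± 57.2 CPM in the light zone gate. By state its highest level was 72.9 CPM in dark zone cells, where 80 of 452 cells had a count, against 27.6 CPM in light zone cells, 31.8 CPM in plasma cells and 5.39 CPM in activated pre-plasma cells. Dark zone pools of annotated cells ran up to 285 CPM on a single plate with a median of 57.6 CPM, and light zone pools had a median of 2.88 CPM and a highest of 88.3 CPM. After thinning the dark zone and light zone values were 75.2 CPM and 22.5 CPM. The sort gates did not carry this difference. In the dark zone gate the mean was 40.6 ± 35.0 CPM and in the light zone gate 47.0 ± 60.5 CPM, with a log2 fold change of 0.17 ± 0.73 (edgeR adjusted p = 1), whose sign is opposite to that of the means. Of the 325 dark zone gate cells 249 were annotated dark zone and 61 light zone, and of the 367 light zone gate cells 139 were annotated dark zone and 189 light zone.

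Atf4, the transcription factor whose translation PERK favours, was counted in more cells than any other member, 335 of 1367 (24.5%). It had a lowest level of 0 CPM, a median of 112 CPM and a highest of 204 CPM in plasma cell gate pools, against 13.2, 70.1 and 130 CPM in germinal centre pools. The plasma cell gate was higher on 15 of 19 plates, but the log2 fold change of 0.52 ± 0.41 did not pass the threshold (edgeR adjusted p = 0.351). In the pre-plasma gate Atf4 averaged 125 ± 80.4 CPM and in the germinal centre gates 72.2 ± 31.5 CPM, with a log2 fold change of 0.62 ± 0.27 (adjusted p = 0.141). DESeq2 put that value past the threshold (adjusted p = 0.0340). Without the cells annotated plasma it was -0.88 ± 0.67 (adjusted p = 0.50). By state, Atf4 had 127 CPM in plasma cells, 95.5 CPM in activated pre-plasma cells, 80.7 CPM in light-to-dark zone cells, 76.2 CPM in dark zone cells and 48.5 CPM in light zone cells.

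Ddit3, which encodes the stress-induced factor CHOP, was counted in 113 of 1367 cells. It had a lowest level of 0 CPM, a median of 16.7 CPM and a highest of 123 CPM in plasma cell gate pools, against 0, 19.3 and 39.6 CPM in germinal centre pools. On 9 plates the plasma cell gate was higher, on 9 lower and on 1 equal. The log2 fold change was -0.71 ± 1.16 (edgeR adjusted p = 0.674), whereas the means of 28.4 ± 37.8 CPM and 20.1 ± 12.3 CPM differ in the other direction. No direction can be given. In the annotation GENCODE vM21, Mars overlaps Ddit3 on the opposite strand and Tulp2 overlaps Ppp1r15a likewise, and whether counting used the strand is not given in the sources used here. That annotation also holds another gene named Ddit3 (chr10:127290829-127293753), which lies within the first on the same strand. How reads shared by these entries were counted is not known.

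Ppp1r15a encodes GADD34, which leads a phosphatase to eIF2 alpha and so reverses the action of PERK. It had a lowest level of 0 CPM, a median of 90.7 CPM and a highest of 209 CPM in plasma cell gate pools, against 0, 25.4 and 78.7 CPM in germinal centre pools. The plasma cell gate was higher on 13 of 19 plates, and the ranges overlapped. The log2 fold change was 1.04 ± 0.86 (edgeR adjusted p = 0.368), with means of 78.6 ± 63.9 CPM and 33.6 ± 26.0 CPM. It passed the threshold in 2 of 11 alternatives, among them thinned cells (1.61 ± 0.64, edgeR adjusted p = 0.0378). In the pre-plasma gate Ppp1r15a averaged 67.4 ± 56.9 CPM and in the germinal centre gates 36.5 ± 28.5 CPM (1.11 ± 0.60, edgeR adjusted p = 0.258), and DESeq2 put that value past the threshold (adjusted p = 0.0456). Immediate early genes respond to handling of cells among other stimuli. The summed level of 15 of them was 1575 ± 773 CPM in the plasma cell gate (SD, n = 19). It was 744 ± 362 CPM in the pre-plasma gate (n = 20, with the shallow plate). The dark zone gate had 574 ± 237 CPM and the light zone gate 712 ± 309 CPM. The part of these genes in the Ppp1r15a and Ddit3 values was not tested. The list did not move one way: of 9 tested, Jun, Fos, Btg2 and Zfp36 were higher in the plasma cell gate, whereas Junb fell by 1.95 and Egr1 fell by 4.47 on the log2 scale. Btg2 alone averaged 649 CPM in the plasma cell gate and 131 CPM in the germinal centre gates.

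Trib3 and Atf3, both ATF4 targets that rise under strong stress, were close to absent from the counts. Trib3 had 113 counts in 5 of 1367 cells, 66 of them in a single cell. Atf3 had 85 counts in 2 cells, with 52 counts in a plasma cell gate cell and 33 counts in a dark zone gate cell. At this depth no difference in either gene could be detected.

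Asns, an ATF4 target that encodes asparagine synthetase, was the one PERK arm gene that passed the threshold, and by a narrow margin. In plasma cell gate pools its lowest level was 0.896 CPM, its median 70.9 CPM and its highest 240 CPM, against 0, 29.4 and 102 CPM in germinal centre pools. On 17 of 19 plates the plasma cell gate was higher, and the ranges overlapped below 102 CPM. Its means were 82.0 ± 60.5 CPM and 36.5 ± 34.5 CPM, with a log2 fold change of 2.00 ± 0.78 (edgeR adjusted p = 0.0497) and a log2 ratio of means of 1.17. It passed the threshold in 5 of 11 alternatives, and with cells at the count ceiling left out the value was 1.07 ± 0.73 (adjusted p = 0.230). Within C57BL/6M it was 2.996 ± 1.30 (adjusted p = 0.117) and within C57BL/6F 1.20 ± 0.81 (adjusted p = 0.371), and without the plate block 1.10 ± 0.64 (adjusted p = 0.217).

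Asns was higher in the pre-plasma gate as well. Pools of that gate had a lowest level of 26.4 CPM, a median of 98.4 CPM and a highest of 422 CPM, against 0, 32.5 and 112 CPM in germinal centre pools. The pre-plasma gate was higher on 17 of 19 plates. Asns averaged 115 ± 88.7 CPM and 39.5 ± 37.4 CPM, with a log2 fold change of 2.32 ± 0.80 (edgeR adjusted p = 0.0478). By edgeR it was the 1 member of 7 tested that passed, and DESeq2 put 5 past the threshold, Asns, Atf4, Atf6, Atf6b and Ppp1r15a. By edgeR 7.16% of 7150 genes were higher and 8.1% lower in the pre-plasma gate. The call held in 7 of 12 alternatives. Within C57BL/6M the value was 2.62 ± 1.18 (adjusted p = 0.261) and within C57BL/6F 2.07 ± 0.99 (adjusted p = 0.299). Without the cells annotated plasma the log2 fold change was 0.81 ± 1.21 over 17 plates (adjusted p = 0.746), with means of 90.4 ± 88.9 CPM and 43.3 ± 41.7 CPM.

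The plasma cell gate and the pre-plasma gate did not differ detectably in Asns. The log2 fold change was -0.42 ± 0.39, with an interval of -1.19 to 0.35 (edgeR adjusted p = 0.528), and the plasma cell gate was lower on 11 of 19 plates. Asns was counted in 16.3% of plasma cell gate cells, 25.9% of pre-plasma gate cells, 7.69% of dark zone gate cells and 7.36% of light zone gate cells. In thinned cells the shares were 14.4%, 20.2%, 5.92% and 6.87%.

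By state, Asns had its highest level in activated pre-plasma cells, at 171 CPM (95% Poisson interval 162 to 181) with a count in 18 of 29 cells. No cell held more than 12.3% of those counts, and the level was 179 CPM in C57BL/6M cells and 157 CPM in C57BL/6F cells. All 29 of these cells came from the pre-plasma gate. Plasma cells had 94.9 CPM with a count in 98 of 480 cells, light-to-dark zone cells 69.1 CPM with 19 of 48, dark zone cells 44.9 CPM with 37 of 452 and light zone cells 16.9 CPM with 14 of 278. After thinning the level in activated pre-plasma cells was 159 CPM (95% Poisson interval 116 to 212), with a count in 12 of 29 cells, and in plasma cells 89.1 CPM. Both Poisson intervals treat the counts of a cell as independent, so they are too narrow. The same activated cells had 5.39 CPM of Eif2ak3, 4.34 CPM of Ddit3 in 1 cell and no count of Ern1, Trib3 or Atf3.

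**Figure D3:**
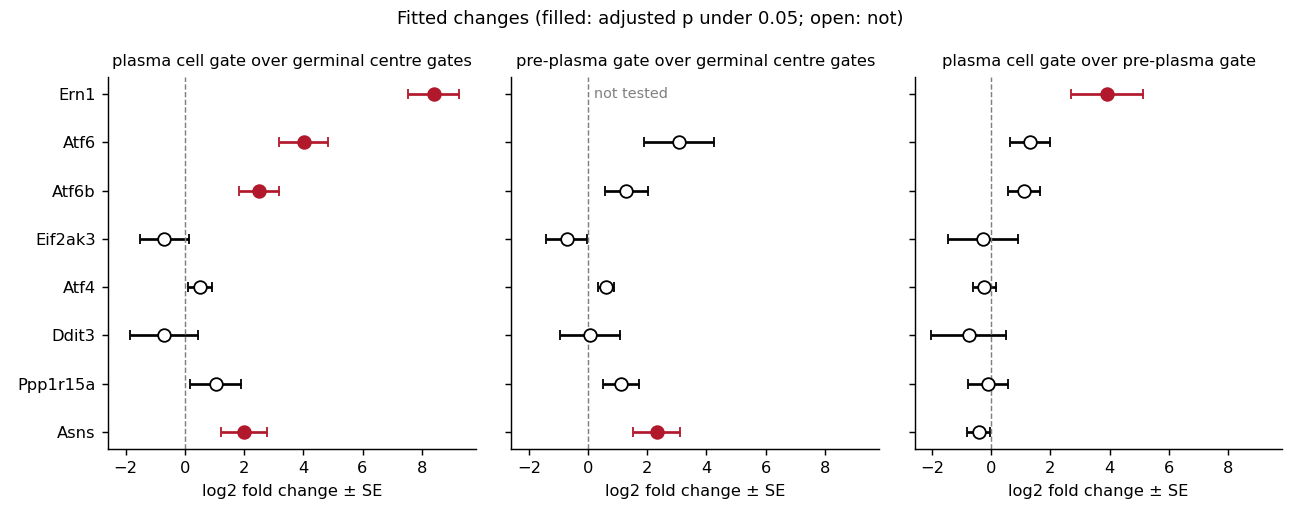
Fitted log2 fold change ± SE (horizontal axis) of 8 genes (vertical axis) in 3 comparisons of sort gates, which share pools with each other. Filled points passed an adjusted p of 0.05 and open points did not. Ern1 stands at 8.41 and 3.92 in the comparisons that start from the plasma cell gate, and Asns at 2.00 and 2.32 against the germinal centre gates.

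Lists of genes assigned to the 3 sensor arms were also compared. They were chosen with earlier results of these data known, and Xbp1 itself stands on the IRE1 and XBP1 list. The lists describe transcript levels, and whether an arm was active was not tested. Of 18 tested genes of the IRE1 arm and XBP1 target list, 16 were higher and none lower in the plasma cell gate than in the germinal centre gates, with a median log2 fold change of 3.08 beside -0.50 for all genes. The 4 with the largest fitted change were Ckap4, Sec24d, Edem2 and Dnajb9. Edem2, which marks misfolded glycoproteins for degradation, rose by 5.39 ± 0.30, and Dnajb9, an ER cochaperone, by 4.74 ± 0.33. Sec24d, a coat protein of ER vesicles, rose by 8.84 ± 0.81, with means of 167 CPM and 3.27 CPM. With so low a level in the germinal centre gates, the size of its fold depends on how it is computed, as for Ern1. Ckap4, an ER sheet protein, had 3760 counts in the plasma cell gate and 3 counts in the germinal centre gates, a ratio of 2003 in CPM with a counting interval of 685 to 9718. Xbp1 itself averaged 4259 ± 1050 CPM and 213 ± 62.6 CPM (log2 fold change 4.35 ± 0.14, edgeR adjusted p = 3.06e-18).

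Of 17 tested genes of the ATF6 list, 14 were higher and none lower, with a median of 3.48. The largest changes were in Derl3 and Hyou1, at 6.44 ± 0.69 and 5.63 ± 1.05, and in Pdia4 and Creld2, at 5.62 ± 0.31 and 5.25 ± 0.18. Hyou1 averaged 83.7 CPM in the plasma cell gate and 7.20 CPM in the germinal centre gates. The size of its fold also depends on how it is computed. Derl3 takes part in ER-associated degradation, Hyou1 is an ER chaperone of the Hsp70 family, Pdia4 a disulfide isomerase and Creld2 a secreted ER stress protein. Among ER-resident factors related to ATF6, Creb3 rose by 2.12 ± 0.34. Creb3l2, which like Ckap4 passed the filter through the plasma cell gate, had 5518 counts in the plasma cell gate and 3 in the germinal centre gates, a ratio of 2940 with a counting interval of 1005 to 14259.

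Of 18 tested ATF4 and CHOP targets, 8 were higher and none lower, with a median of 0.95. Pycr1, an enzyme of proline synthesis, rose by 9.21 ± 0.85, and Ero1l, the oxidase that regenerates disulfide isomerases, by 4.75 ± 0.75. Slc3a2, a subunit of amino acid transporters, rose by 2.46 ± 0.22, and Nars, an aminoacyl tRNA synthetase, by 1.72 ± 0.12. Pycr1 averaged 291 CPM in the plasma cell gate and 2.66 CPM in the germinal centre gates, and Ero1l 110 CPM and 8.31 CPM. The sizes of these folds depend on how they are computed. The list of eIF2 alpha kinases and translation control genes had 2 higher and 4 lower of 17 tested, with a median of -0.45. Of all genes 13.6% were higher and 21.3% lower, with a median of -0.50, so this list as a whole did not stand apart. Eif2ak4, which encodes the amino acid sensing kinase GCN2 that acts on eIF2 alpha as PERK does, averaged 7.17 CPM in the plasma cell gate and 33.1 CPM in the germinal centre gates (-4.36 ± 1.09, edgeR adjusted p = 0.00286). Dnajc3, an ER cochaperone that inhibits PERK and also stands on the ATF6 list, rose by 4.65 ± 0.21. Eif2b2, a subunit of the exchange factor for eIF2, fell by 1.57 on the log2 scale, and Ppp1ca, a phosphatase subunit that acts with GADD34, fell by 0.70 on that scale.

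The listed partners of the IRE1 arm did not move one way. Of 7 tested, Ddrgk1 and Tmbim6 were higher, at 2.20 ± 0.29 and 1.68 ± 0.08, and 3 were lower. Rtcb, the ligase that rejoins Xbp1 mRNA after IRE1 alpha has cut it, averaged 173 CPM in the plasma cell gate and 369 CPM in the germinal centre gates (-1.25 ± 0.29, edgeR adjusted p = 0.00123). Traf2, an adaptor of IRE1 signalling, fell by 1.72 on the log2 scale, and Bax, a mitochondrial cell death protein that binds IRE1 alpha, fell by 0.95 on that scale. Beside them stands the median of -0.50 for all genes.

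**Figure D4:**
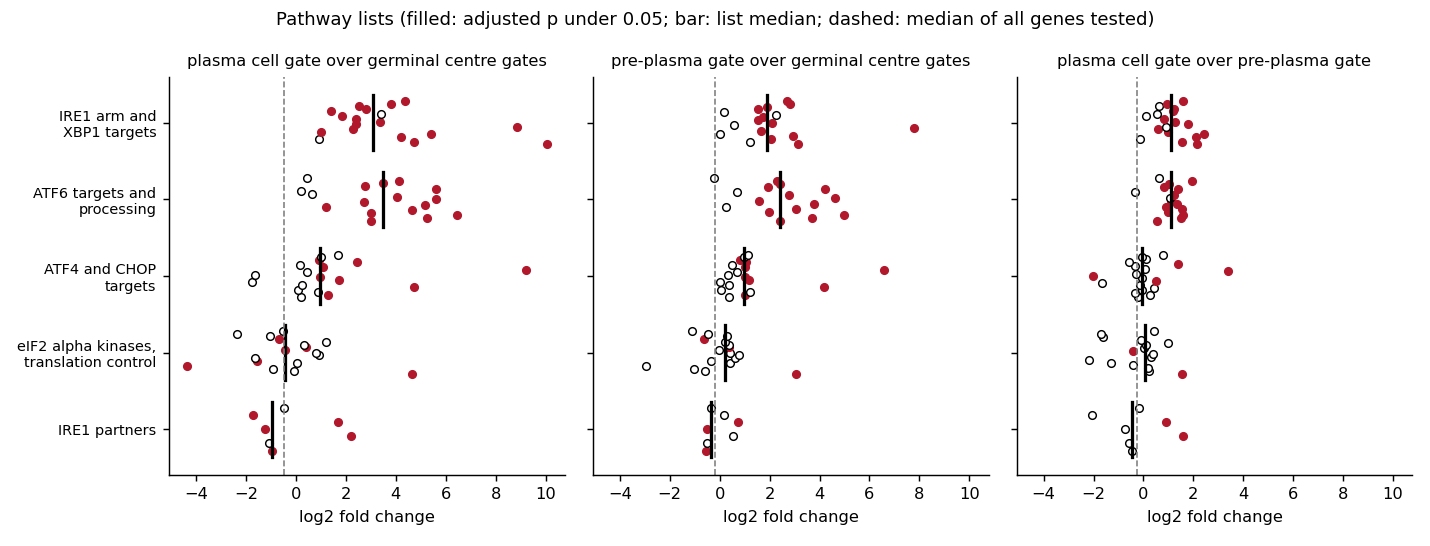
Log2 fold change (horizontal axis) of the tested genes of 5 pathway lists (vertical axis, points spread for legibility) in 3 comparisons of sort gates. Filled points passed an adjusted p of 0.05, the short bar is the list's median and the dashed line the median of all genes tested. In the left panel the IRE1 and ATF6 lists have medians of 3.08 and 3.48. The eIF2 alpha list has one of -0.45, close to the -0.50 of all genes.

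In the pre-plasma gate against the germinal centre gates, 12 of 17 tested genes of the IRE1 and XBP1 list and 13 of 16 of the ATF6 list were higher, with medians of 1.88 and 2.42 beside -0.18 for all genes. Sec24d rose by 7.79 ± 0.96, with the caution given above for its fold, and Derl3 by 4.99 ± 0.57. Of the ATF4 and CHOP targets 8 of 18 were higher, with a median of 0.98. No gene of these 3 lists was lower. Without the cells annotated plasma, 3 genes of the IRE1 and XBP1 list were higher and 1 lower of 17, and 7 genes of the ATF6 list were higher and 1 lower of 16. The ATF4 and CHOP targets then had none higher or lower of 17 by edgeR, with 2 at an unadjusted p under 0.05, and DESeq2 was not run without those cells. The medians were then 0.78, 1.27 and 0.26 beside -0.59 for all genes, and 358 genes in all were called, against 1091 with those cells.

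Between the plasma cell gate and the pre-plasma gate, 13 of 18 genes of the IRE1 and XBP1 list and 13 of 16 of the ATF6 list were higher, with medians of 1.09 and 1.10 beside -0.27 for all genes. Edem2 rose by 2.43 ± 0.17 and Sel1l, a subunit of the ER degradation complex, by 1.94 ± 0.20. Of 19 ATF4 and CHOP targets tested, Pycr1, Slc3a2 and Nars were higher and Psat1, an enzyme of serine synthesis, was lower at 66.9 CPM against 183 CPM (-2.02 ± 0.67, edgeR adjusted p = 0.0354). The list's median was -0.06. Without the cells annotated plasma, 13 of 18 genes of the IRE1 and XBP1 list and 15 of 16 of the ATF6 list were higher, with medians of 2.12 and 2.16 beside -0.13 for all genes. Psat1 then missed the threshold, and the median of the ATF4 and CHOP targets was 0.39, of the opposite sign. The comparisons of gates share pools, so their values stand side by side and are not independent.

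In cells annotated plasma, the 2 gates could be compared on 17 plates. None of the 8 members tested passed the threshold, where 5.95% of 5713 genes did (4.67% higher, 1.28% lower). At an unadjusted p under 0.05 there was 1 member, Ern1, which averaged 60.6 ± 35.7 CPM in the plasma cell gate and 22.1 ± 31.7 CPM in the pre-plasma gate (2.80 ± 1.34, edgeR adjusted p = 0.313). DESeq2 put Ern1 past the threshold (adjusted p = 0.0134), and the 2 ranges overlapped. Ern1 again entered through the plasma cell gate, where 1 of 17 pools held no count, against 7 in the pre-plasma gate. Xbp1 averaged 4374 CPM and 2340 CPM in the same pools (0.92 ± 0.09, edgeR adjusted p = 1.46e-07). Of the IRE1 and XBP1 list 7 of 18 and of the ATF6 list 10 of 16 genes were higher, against 2 of 18 ATF4 and CHOP targets.

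Between the dark zone and light zone gates no difference passed the threshold in the 5 members tested, all of the PERK arm. Ern1, Atf6, Atf6b, Trib3 and Atf3 did not pass the filter, so the IRE1 and ATF6 arms were not tested here. By edgeR 0.305% of 5904 genes passed the threshold (0.186% higher, 0.119% lower), none of them a member, and no member had an unadjusted p under 0.05 or was called by DESeq2. Ddit3 had the largest value, with means of 15.4 ± 20.0 CPM in the dark zone gate and 27.4 ± 21.7 CPM in the light zone gate (-2.15 ± 1.39, interval -4.89 to 0.58, edgeR adjusted p = 1). Ppp1r15a followed with 26.8 ± 29.0 CPM and 44.0 ± 39.5 CPM (-1.14 ± 1.0003, interval -3.10 to 0.82, adjusted p = 1). Such intervals do not show that the gates were alike.

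The 2 sampleIDs could be compared over 10 C57BL/6M and 9 C57BL/6F plates. In the plasma cell gate none of 8 members passed the edgeR threshold, where 0.665% of 6019 genes did, and 1 had an unadjusted p under 0.05. That was Ddit3, which averaged 8.54 ± 12.4 CPM in C57BL/6M and 49.7 ± 48.6 CPM in C57BL/6F plates (-2.52 ± 1.21, p = 0.0479, adjusted p = 0.9998). On the common scale 5 of 10 C57BL/6M pools and 1 of 9 C57BL/6F pools held no Ddit3 count, and the ranges overlapped, with highest pools of 38.7 CPM and 141 CPM. Ppp1r15a averaged 42.9 ± 46.1 CPM and 111 ± 62.3 CPM (-1.36 ± 0.81, adjusted p = 0.9998). In the same gate the immediate early genes summed to 1124 ± 219 CPM in C57BL/6M and 2075 ± 869 CPM in C57BL/6F plates, and their part in both values was not tested. Ern1 averaged 54.2 ± 31.2 CPM and 49.3 ± 34.9 CPM, and Atf6 94.2 ± 50.02 CPM and 91.8 ± 65.2 CPM. DESeq2 called no member.

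In the germinal centre gates none of 7 members passed, where 0.23% of 7387 genes did by edgeR, and none had an unadjusted p under 0.05 or was called by DESeq2. The change between the plasma cell gate and the germinal centre gates was also tested for a difference between the sampleIDs. By edgeR 0 of 8608 genes passed (0%), 267 had an unadjusted p under 0.05 and DESeq2 called 63, none of them a member. The difference was largest for Ddit3, at -4.06 ± 2.13 (edgeR adjusted p = 1).

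Similarity of pattern was measured by Pearson's r of log2(CPM + 1) over 77 plate by gate pools and 8178 genes. It serves as a description, since pools share plates and depth, and the shallow plate's pre-plasma pool is among them. Ern1 was most like Hsd11b1 (r = 0.839), Creb3l2 (r = 0.838) and the gene a (r = 0.834). Atf6 was most like Sec24d (0.731), Qpctl (0.729) and Tpst2 (0.724), and Atf6b most like Rpl10 (0.728), Fndc3a (0.714) and Bcat2 (0.713). Asns was most like Zfp260 (0.734), Rnaset2b (0.676) and Anxa7 (0.672), and Atf4 most like Cers2 (0.670), Atp5g2 (0.668) and Sin3b (0.666). Ppp1r15a was most like H2-Q7 (0.709), Tmem39a (0.632) and Eef1d (0.627). The sensor Eif2ak3 reached at most 0.536, with Pja1, before Lbr (0.483) and Cdk2 (0.480), and Ddit3 at most 0.429, with Slc39a6, before AW112010 (0.420) and Stx12 (0.417). Rpl10 and H2-Q7 have near-identical copies in the genome, so their counts are uncertain.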

How the data were processed

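Single cells were sorted into plates by index sorting and sequenced from the 5′ end after 22 preamplification cycles, per the labels' protocols. The submitters' processing notes name STAR 2.5.3a, HTSeq 0.9.1 and the build mm10. The authors deposited raw counts, a whole number for each gene in each cell with no scaling, and the count of a gene in a cell never exceeds 1024, a ceiling that 95 cells reach. The authors' cell table gives plate, sort gate and annotated state. No cell barcode occurred more than once.

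Counts were summed per plate and gate, in pools of at least 5 cells, and tested in R 4.3.3 with edgeR 4.0.16 (TMM scaling, filterByExpr, quasi-likelihood test, Benjamini-Hochberg adjustment over all genes tested, threshold 0.05). Plate was a block between gates, because pools of 1 plate share a library by the authors' cell table. Fold change intervals are 95% normal intervals from the SE. The 2 sampleIDs were compared without a block. DESeq2 1.42.0, equal thinning of 1271 cells to 10000 counts (96 cells were too shallow), omission of 299 immunoglobulin genes, of ceiling cells or of the filter, pools of at least 10 cells, and fits within each sampleID were alternatives. Levels by state are sums with exact Poisson intervals, which cover counting error only. They treat the counts of a cell as independent and leave out the spread between cells and plates.

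The genes and the pathway lists were chosen with earlier results of these data known. The text names every one of the 10 genes, and from each list up to 4 called genes with the largest absolute fold change, plus Xbp1. Bax was named beyond this rule, after its value was seen. From the immediate early list all called genes of the first comparison were named, which also exceeds the limit of 4.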

Additional observations from a re-analysis of the deposited data

Results flagged for a closer look

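One plate stood apart. In the germinal centre gates of the 9 C57BL/6F plates, Eif2ak3 reached 153 CPM on plate 2, and the next highest plate had 54.8 CPM, a gap that is wide for a group of this size. Over the 30 groups of members and gates that were checked, this was the 1 that stood out, and chance alone sets off about 1 in 20 groups.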

How the results depend on the processing

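Ern1 and Atf6 in the plasma cell gate against the germinal centre gates passed the threshold in every alternative that could be fitted. Their log2 fold changes were 6.34 to 8.45 and 3.05 to 4.24, and these alternatives draw on the same counts. Counts of called genes varied more. In the plasma cell gate against the germinal centre gates, 2398 genes were called, and 3730 by DESeq2, 1527 within C57BL/6M and 954 within C57BL/6F. Without cells at the ceiling the split was 607 higher and 2394 lower, with a median of -1.11. In the pre-plasma gate against the germinal centre gates, where the count was 1091, it was 1982 by DESeq2, 1833 without estimateDisp, 495 within C57BL/6M, 529 within C57BL/6F and 358 without cells annotated plasma, an alternative chosen after seeing the data. Between the plasma cell and pre-plasma gates (1189) it was 2364 by DESeq2, 2075 without estimateDisp, 764 within C57BL/6M and 287 within C57BL/6F. Between the dark zone and light zone gates (18) it was 135 by DESeq2, 50 without the filter, 31 in thinned cells, 45 without estimateDisp, 5 within C57BL/6M and 0 within C57BL/6F. In annotated plasma cells (340) it was 870 by DESeq2, 8 with pools of at least 10 cells, 156 without ceiling cells, 738 without estimateDisp, 162 within C57BL/6M and 82 within C57BL/6F. Between sampleIDs it was 84 by DESeq2, 77 without the filter and 104 without estimateDisp in the plasma cell gate (40), and 8 with DESeq2 size factors, 71 by DESeq2, 36 without the filter, 33 without immunoglobulin genes and 77 without estimateDisp in the germinal centre gates (17). For the difference between sampleIDs (0) it was 63 by DESeq2, 5 without the filter and 2 without estimateDisp.

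Signs turned for values that had not been called. Against the germinal centre gates, the plasma cell gate gave -0.27 for Atf4 without ceiling cells, and for Ddit3 0.34 without estimateDisp, 0.026 without the block and 1.004 within C57BL/6F. The pre-plasma gate gave Ddit3 -0.17 without ceiling cells and -0.66 within C57BL/6M, and without cells annotated plasma Atf6b -1.55, Atf4 -0.88, Ddit3 -2.81 and Ppp1r15a -0.076. Between the plasma cell and pre-plasma gates, Ppp1r15a was 0.32 in thinned cells, 0.50 without estimateDisp, 0.29 without the block and 0.48 within C57BL/6F, Eif2ak3 0.036 without the block, Ddit3 0.40 within C57BL/6F and Asns 0.054 within C57BL/6M. Without cells annotated plasma Eif2ak3 was 1.03, Atf4 0.86, Ddit3 1.803, Ppp1r15a 0.89 and Asns 0.79. Between the dark zone and light zone gates, Eif2ak3 was -0.18 without the block and -0.64 within C57BL/6F, Asns -0.037 and -0.57, and Atf4 0.67 within C57BL/6F. In annotated plasma cells, pools of at least 10 cells gave Atf6b -2.36, Eif2ak3 3.36 and Asns 0.71, and Eif2ak3 was 0.067 without ceiling cells, 0.041 without the block and 0.75 within C57BL/6F, Ppp1r15a -0.050 without the block, Ddit3 0.20 within C57BL/6F and Atf6b -0.22 within C57BL/6M. Between sampleIDs in the plasma cell gate, Atf6 was -0.023 with DESeq2 size factors and by DESeq2, -0.50 in thinned cells and -0.24 without ceiling cells, and Eif2ak3 -0.059 without estimateDisp. In the germinal centre gates without estimateDisp, Eif2ak3 was 0.074, Ddit3 -0.17 and Asns -0.10. For the difference between sampleIDs, Ern1 was 0.068 by DESeq2 and Eif2ak3 -0.089 without estimateDisp. The cause was not tested.

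Without the replicate block, 1920, 899 and 884 genes were called in the first 3 comparisons of gates, and Asns in both and Ern1 in the third missed the threshold. Where the pre-plasma gate was compared, the fit without the block also took in the shallow plate's pre-plasma pool. No paired analysis was possible for the 2 sampleIDs because a plate carries only 1 of them. Depth limits what the members can show: the most widely counted one, Atf4, had a count in 24.5% of cells, and differences in Trib3 and Atf3 were not detectable.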
